A study of Homo sapiens with 24 samples.

Results

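Caki-1 cells that had received 1 µM dasatinib for 6 h were compared with Caki-1 cells that had received the vehicle DMSO, with 3 arrays in each group. These 6 arrays were taken by line and treatment from the labels, out of 24 arrays in 8 groups. The other arrays were of Caki-1 after 12 h and 24 h at the same dose and of a second human renal cell carcinoma line, 769-P, under dasatinib for 6, 12 and 24 h and under DMSO. Caki-1 is a human clear cell renal cell carcinoma line grown from a skin metastasis, and dasatinib blocks the ATP site of the SRC family, ABL, ephrin receptor, DDR and several other kinases. The vehicle arrays carry no time, so hours with the drug and hours in culture cannot be told apart. By the labels the 3 arrays of each group are biological replicates, with nothing on whether separate cultures were used, so p-values measure only the spread between these samples. One line at one dose is the whole model, and in bulk RNA fewer cells of a kind and less RNA per cell cannot be told apart.

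Levels are the deposited log2 signals, 1 probe set per gene, and a step of 1 is a doubling. Changes are log2 differences, dasatinib minus DMSO, ± SE from a limma fit over the 12 Caki-1 arrays. A gene "rose" or "fell" where its adjusted p, over all 12420 genes tested, was under 0.05. The 6 arrays had medians between 6.011 and 6.057. In both groups array 1 stood somewhat apart: over the genes tested it correlated with arrays 2 and 3 at 0.9943 and 0.9939 after dasatinib and at 0.9952 and 0.9944 under DMSO, where arrays 2 and 3 correlated with each other at 0.9969 and 0.9973. Counts without the arrays numbered 1 of all 4 Caki-1 groups, a setting chosen after seeing the data, are given where they moved by over 1.5 times, in part together after the lists. Of 12 renal lineage genes tested, LHX1 and KRT18 fell (16.7%, against 14.0% over all genes) and PAX8 rose (8.3%, against 12.3%). PAX8, a transcription factor of kidney epithelium, had log2 signals of 10.49, 10.37 and 10.45 after dasatinib, against 10.14, 9.97 and 9.88 under DMSO. Of all 20 genes of this list, 4 lay under the filter on dim genes, the proximal tubule markers LRP2, MME, AQP1 and SLC5A2. The remaining 4 had no probe set that names a single gene. The median signal of 12 leukocyte markers lay between 5.15 and 5.25 per array after dasatinib and between 5.05 and 5.34 under DMSO, and 6 of them, among them PTPRC, CD3D and CD8A, were under the filter. For 10 endothelial markers it lay between 5.11 and 5.27 after dasatinib and between 5.02 and 5.24 under DMSO. Of the leukocyte markers 6 passed the filter and 1 fell (16.7%, near the share over all genes). Of the endothelial markers 4 passed it and none changed.

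SRC family kinases work at the places where integrins hold a cell to its substrate. There they phosphorylate focal adhesion proteins, feed the RAS to ERK and PI3K to AKT pathways, and help keep the coactivator YAP and its relative TAZ in the nucleus, where both switch on genes through TEAD factors. ERK activity is read out by AP-1 subunits, Sprouty proteins and cyclin D1, while AKT keeps FOXO transcription factors out of the nucleus. MYC, downstream of several of these signals, drives the genes that build ribosomes.

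After 6 h, 3273 of 12420 genes (26.4%) had changed, of which 1531 rose (12.3%) and 1742 fell (14.0%). The shares that rose and fell are the background for each list count below, and a list near them does not stand out. Most of the changes were small: the median size over all genes was 0.14 and the median SE 0.1, and 283 genes (2.28%) changed at least 2-fold, 124 up (0.998%) and 159 down (1.28%). The median change over all genes was 0.0086. In 5018 genes (40.4%) the 3 dasatinib arrays lay wholly above or below the 3 DMSO arrays. The largest rises were in PDK4, which switches off pyruvate dehydrogenase and was dim under DMSO, and MT1F, a metal-binding metallothionein. The largest falls were in CCN2 and CCN1, secreted matricellular proteins that YAP and TEAD switch on. For 9 of 103 rises named here the mean under DMSO was below the level that the filter requires (5.38), so these genes passed the filter only through the dasatinib arrays and the size of their rise is uncertain. They were PDK4, PDE4B, MT1H, GBP2, LUM, NR4A2, NR4A3, PPARGC1A and TPPP.

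**Figure D1:**
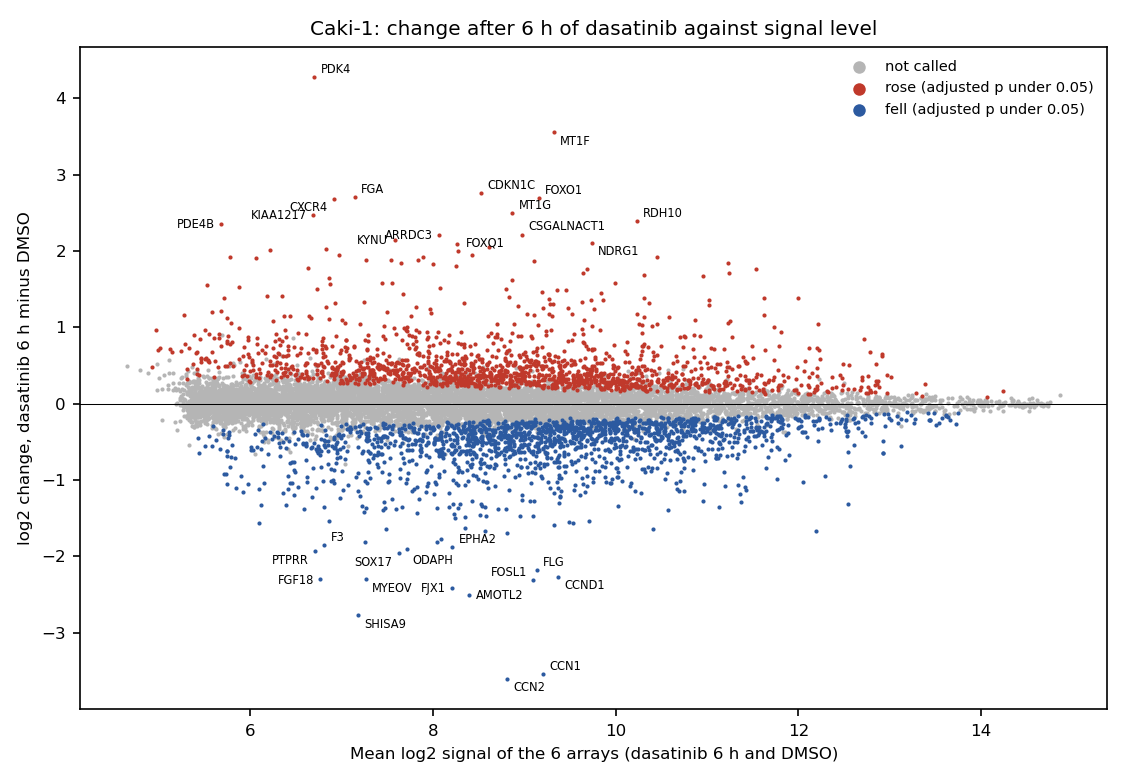
Change of each of the 12420 genes tested (log2, dasatinib 6 h minus DMSO, vertical axis) against its mean log2 signal over the 6 arrays (horizontal axis). The 30 named genes are the 15 largest rises and falls whose arrays do not overlap, and they run from -3.604 for CCN2 to 4.28 for PDK4.

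The steepest falls of all, those of CCN2 and CCN1, were in genes of the YAP and TEAD axis. Other large falls, such as that of SHISA9 (-2.77), lay outside it. CCN2 had log2 signals of 6.796, 7.09 and 7.14 in the dasatinib arrays, against 10.19, 10.71 and 10.93 in the DMSO arrays. The 2 sets were far apart, and CCN2 fell by 3.604 ± 0.16, or 12.2-fold (adjusted p = 2.15e-09). Its relative CCN1 read 7.05, 7.72 and 7.53 after dasatinib and 10.74, 11.09 and 11.11 under DMSO. No array of one group came near the other, and CCN1 fell by 3.54 ± 0.22 (adjusted p = 5.78e-08). ANKRD1, another classical target, was too dim to be tested, with 3.96, 3.93 and 4.15 after dasatinib, against 5.25, 5.84 and 6.28 under DMSO.

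Of 23 YAP and TEAD target genes tested, 13 fell and 2 rose, with a median change of -0.37 beside 0.0086 over all genes. AMOTL2, an angiomotin that holds YAP at cell junctions and is itself a target, read 6.91, 7.21 and 7.305 after dasatinib, against 9.24, 9.801 and 9.896 under DMSO, and fell by 2.503 ± 0.16 (adjusted p = 6.59e-08). FJX1, a secreted regulator related to Drosophila four-jointed, read 6.66, 7.15 and 7.18, against 9.14, 9.497 and 9.59 under DMSO, and fell by 2.41 ± 0.197 (adjusted p = 6.21e-07). AJUBA, a LIM protein that binds LATS kinases, fell by 1.69 ± 0.070, with 7.93, 7.95 and 7.998 after dasatinib and 9.61, 9.64 and 9.699 under DMSO. F3, the tissue factor that starts blood coagulation, fell by 1.86 ± 0.23, and its DMSO arrays were spread, at 6.97, 8.199 and 8.04, above 5.76, 5.87 and 6.02 after dasatinib. The exceptions were NFIL3, a circadian bZIP repressor, which rose by 1.36 ± 0.087, and IGFBP3, a carrier of insulin-like growth factors, which rose by 0.88 ± 0.12.

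Among 15 regulators of the axis, 7 fell and 2 rose. With 1 array left out the falls were 5 to 6 and the rises 0 to 1. The coactivators differed: WWTR1, which encodes TAZ, fell by 0.72 ± 0.097 (adjusted p = 7.39e-05), while the change of YAP1 was -0.12 ± 0.083 (adjusted p = 0.333), with overlapping arrays. NF2, the junctional tumour suppressor merlin, fell by 0.70 ± 0.085, the TEAD factor TEAD4 by 0.62 ± 0.11 and the kinase LATS2, also a target, by 0.56 ± 0.083. The rises were in TEAD1 (0.204 ± 0.064) and VGLL4, a competitor of YAP for TEAD (0.28 ± 0.095). Both calls were weak: TEAD1 did not pass without dasatinib array 1 or 2 or DMSO array 1 or 2, nor VGLL4 without dasatinib array 2 or 3 or any 1 DMSO array (changes down to 0.062 and 0.24 over all alternatives, adjusted p up to 0.592 and 0.149). Over the mean of its 7 probe sets NF2 had a change of -0.26.

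Promoters of 300 bases, from 250 before to 50 after the start, were given by RefSeq (GRCh38.p14) for 10132 of the genes tested. The TEAD motif GGAATG, sought on both strands, was in 11.11% of them and in 6 of 17 YAP target promoters (35.29%). It was in 20 of 122 promoters of genes that fell at least 2-fold (16.39%). Of the promoters of all genes that fell 12.67% held it, and of those of genes that rose 10.69%, both near the share of all. The CCN2 promoter is shown because CCN2 fell most, with its 3 matches in capitals (chr6:131951323-131951622, minus strand).
CCN2: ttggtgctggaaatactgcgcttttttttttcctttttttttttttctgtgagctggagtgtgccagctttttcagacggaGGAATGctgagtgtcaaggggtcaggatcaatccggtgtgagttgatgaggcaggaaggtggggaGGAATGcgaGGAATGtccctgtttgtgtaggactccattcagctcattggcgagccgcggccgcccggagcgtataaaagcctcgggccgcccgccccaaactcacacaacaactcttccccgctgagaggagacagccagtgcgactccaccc
A match describes the letters and not binding.

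Actin genes, which answer to tension through SRF, moved in both directions. Of 26 SRF and actin genes, 6 fell and 5 rose, with a median of 0.0034. SRF itself fell by 0.35 ± 0.073, or by 0.15 over the mean of its 2 probe sets, which did not pass. The filament crosslinker ACTN1 fell by 0.36 ± 0.068 and the keratin KRT80 by 1.17 ± 0.17, while smooth muscle actin ACTA2 rose by 0.63 ± 0.13 and the Z-disc protein PDLIM5 by 0.62 ± 0.058. Without dasatinib array 1 or 2 or DMSO array 2 or 3 the rises were 3, and without the arrays numbered 1 the falls were 10. Of 22 integrin and focal adhesion genes 5 fell and none rose, by 0.21 to 0.84. They were the adaptor TNS3, the SRC substrate PXN (paxillin), the focal adhesion kinase PTK2, the talin partner VCL (vinculin) and the caveolar coat protein CAV1. VCL had a change of -0.064 over the mean of its 4 probe sets, which did not pass. No integrin subunit was among them.

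Genes of the drug's own target kinases changed in shares near those of all genes. Of 17 tested, 2 fell (11.8%, against 14.0% over all genes) and 2 rose (11.8%, against 12.3%). SRC read 8.15, 7.81 and 7.802 after dasatinib, against 8.198, 8.15 and 8.23 under DMSO, and did not pass the test (-0.27 ± 0.105, adjusted p = 0.0708). YES1, ABL1, DDR1 and LYN had changes of -0.030, 0.18, -0.026 and 0.0016, and none passed. ABL2, the second ABL kinase, fell by 0.49 ± 0.086, and the ephrin receptor EPHA2 read 7.27, 7.42 and 7.13 after dasatinib, against 8.92, 9.28 and 9.24 under DMSO. Its arrays did not overlap, and it fell by 1.88 ± 0.11 (adjusted p = 3.31e-08). The salt-inducible kinases, which dasatinib also binds, went the other way: SIK2 read 9.79, 9.94 and 10.02 after dasatinib, against 8.48, 8.48 and 8.42 under DMSO, and rose by 1.46 ± 0.12, and SIK3 rose by 0.57 ± 0.099.

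Several growth factor genes fell while the receptors EGFR and ERBB2 did not pass the test. In the EGF family 4 of 11 genes fell and 2 rose, and with any 1 array left out only 1 rose. Among the falls were 3 ligands. NRG1, which activates ERBB3, fell by 1.29 ± 0.18, TGFA, a ligand of EGFR, by 0.85 ± 0.11, and HBEGF by 0.59 ± 0.18. HBEGF had overlapping arrays and did not pass without dasatinib array 1 or DMSO array 2 or 3 (changes of -0.53 to -0.41, adjusted p up to 0.134). The ligand EGF rose by 0.66 ± 0.098. The receptors EGFR and ERBB2 had changes of 0.057 and -0.11, and neither passed the test. FGF18, a fibroblast growth factor, read 5.46, 5.84 and 5.55 after dasatinib, against 7.29, 8.38 and 8.08 under DMSO. The groups were well apart although DMSO array 1 was lowest of its group, and FGF18 fell by 2.301 ± 0.21 (adjusted p = 1.67e-06). ROR1, a WNT5A receptor, fell by 1.81 ± 0.11, with 7.06, 7.23 and 7.13 after dasatinib and 8.72, 9.04 and 9.08 under DMSO. The receptor kinases AXL and MET had changes of -0.14 and -0.017 and did not pass. Among ephrins EFNA1, a ligand of EPHA2, rose by 0.97 ± 0.11, and EFNA5 fell by 0.57 ± 0.086.

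ERK pathway genes were divided. Of 12 AP-1 subunits 4 fell and 1 rose. FOSL1, the FRA-1 subunit, read 7.96, 8.07 and 7.79 after dasatinib, against 10.03, 10.36 and 10.37 under DMSO, and fell by 2.31 ± 0.14 (adjusted p = 4.56e-08). Its partner JUN read 6.59, 7.13 and 7.07 after dasatinib, against 7.89, 8.34 and 8.29 under DMSO, and fell by 1.25 ± 0.16. In both genes the groups were clearly apart. FOS had a change of 0.081 ± 0.084 and did not pass, and the stress-induced ATF3 rose by 0.75 ± 0.14.

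Feedback inhibitors and other readouts of ERK moved in both directions. Of 13 genes of the Sprouty, SPRED and ETV list 8 fell and 2 rose, with a median of -0.402. The falls were 6 to 7 with 1 array left out. This list also holds transcription factors and the cyclin CCND1, which had its largest fall and is counted again among the G1 cyclins below. SPRY1 fell by 0.76 ± 0.14, SPRY4 by 0.602 ± 0.14 and the transcription factor ETV5 by 0.54 ± 0.090, while SPRY2 read 8.51, 8.73 and 8.39 after dasatinib, against 8.14, 7.95 and 7.95 under DMSO, and rose by 0.53 ± 0.12. The MAP kinase phosphatases had 3 rises and no fall among 9 tested. DUSP1, which acts mainly on p38 and JNK, read 8.59, 8.98 and 8.75 after dasatinib, against 6.69, 6.96 and 7.04 under DMSO, and rose by 1.88 ± 0.15 (adjusted p = 5.84e-07). DUSP6, the cytoplasmic ERK phosphatase, read 8.97, 9.69 and 9.54, against 8.43, 8.58 and 8.54 under DMSO, and rose by 0.88 ± 0.18, and DUSP5, the nuclear one, rose by 0.75 ± 0.17.

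Immediate-early genes also went both ways, with 5 rises and 4 falls among 18. EGR1, a zinc finger factor that ERK and SRF induce, read 6.81, 7.21 and 6.97 after dasatinib, against 5.49, 6.05 and 6.03 under DMSO. All dasatinib arrays were above all DMSO arrays, and EGR1 rose by 1.15 ± 0.14 (adjusted p = 2.9e-05), or by 0.74 over the mean of its 6 probe sets. The antiproliferative BTG1 rose by 1.69 ± 0.072, and the nuclear receptors NR4A2 and NR4A3 by 1.21 ± 0.19 and 0.86 ± 0.21. KLF2, a Kruppel-like factor, fell by 1.67 ± 0.076.

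**Figure D2:**
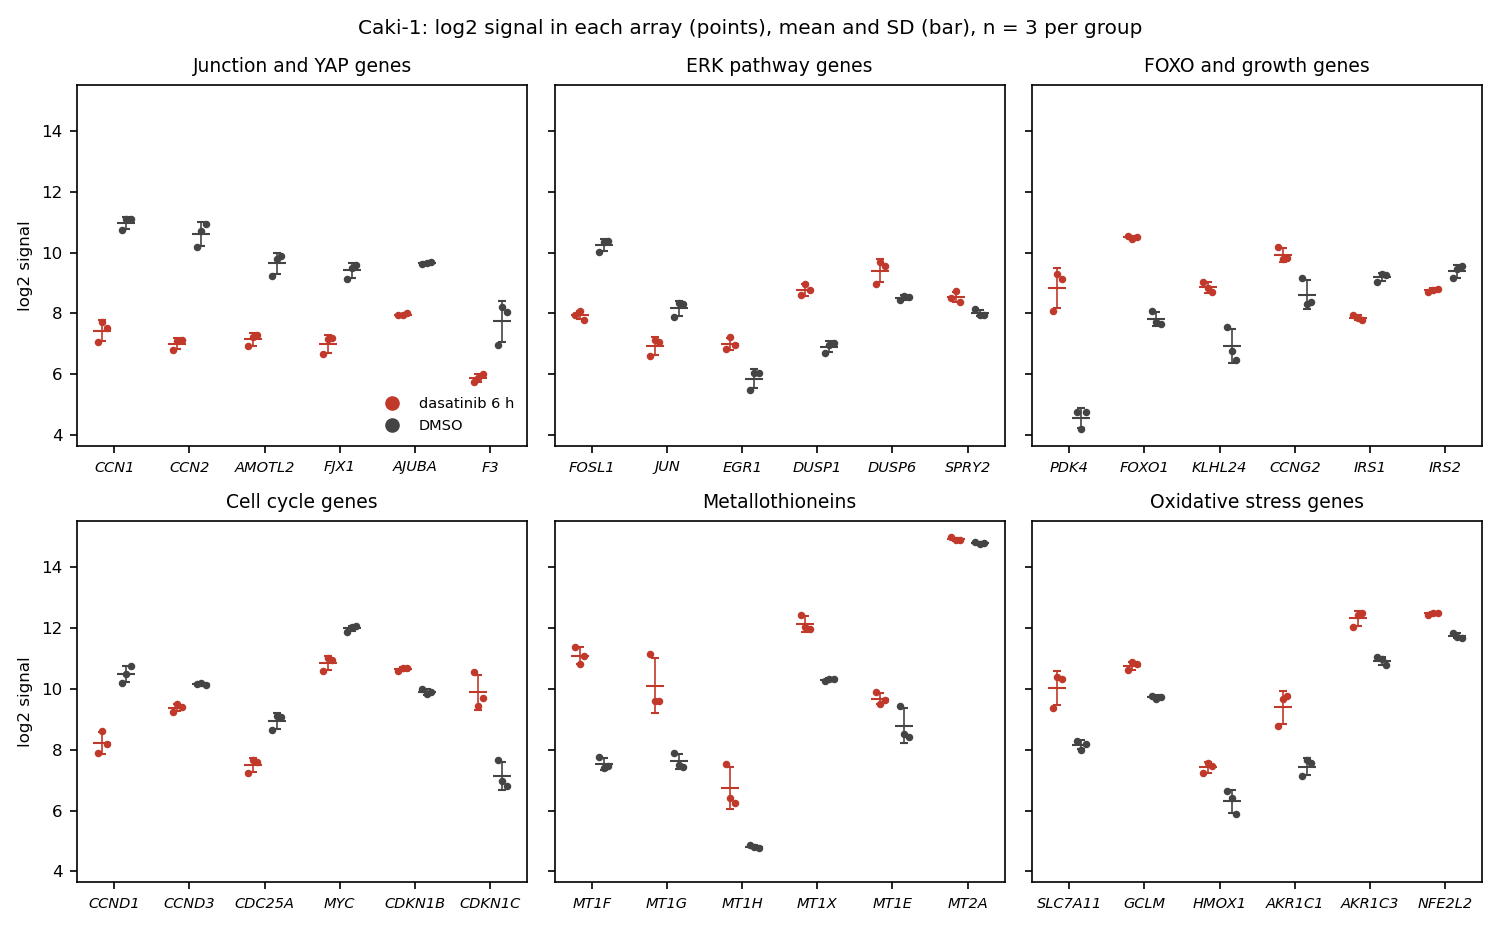
Log2 signal (vertical axis) of 36 genes in 6 groups of related function, in each of 3 dasatinib arrays (red) and 3 DMSO arrays (grey), with mean and SD. CCN2 and CCN1 lie far lower after dasatinib, PDK4, FOXO1 and MT1F far higher, and MT2A sits near the top of the scale in both groups.

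FOXO factors and their targets rose in large part: 20 of 27 rose and 3 fell, with a median of 0.603. PDK4 read 8.09, 9.298 and 9.12 after dasatinib, against 4.74, 4.18 and 4.75 under DMSO. Its DMSO signals lay below the filter level, so the rise of 4.28 ± 0.28 rests on a dim reading. It was 3.46 from the filter level to the dasatinib mean, and 2.33 over the mean of its 2 probe sets. FOXO1 read 10.54, 10.45 and 10.51 after dasatinib, against 8.06, 7.703 and 7.66 under DMSO, a rise of 2.69 ± 0.087 (adjusted p = 1.51e-10) with tight dasatinib arrays, or of 1.58 over the mean of its 4 probe sets. The change of FOXO3 was 0.19 ± 0.095 and did not pass (adjusted p = 0.169).

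Among the targets, KLHL24, an adaptor that brings proteins to a ubiquitin ligase, read 9.03, 8.83 and 8.701 after dasatinib, against 7.55, 6.76 and 6.48 under DMSO, and rose by 1.93 ± 0.19. CCNG2, an atypical cyclin of resting cells, read 10.198, 9.78 and 9.82, against 9.16, 8.32 and 8.38 under DMSO, and rose by 1.31 ± 0.17. In both genes DMSO array 1 was the highest of its group, yet below every dasatinib array. Array 1 was the highest in both groups for 13 of 27 genes of the list (48.1%), against 17.0% over all genes tested. TXNIP, an arrestin-like brake on glucose uptake, rose by 1.09 ± 0.16, its relative ARRDC3 by 2.21 ± 0.15 (adjusted p = 1.17e-07) and the small protein YPEL2 by 1.49 ± 0.17. FBXO32, the muscle ubiquitin ligase atrogin-1, fell by 1.23 ± 0.17.

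Of 21 insulin and PI3K signalling genes 8 rose and 4 fell. Both insulin receptor substrates fell: IRS1 read 7.94, 7.85 and 7.796 after dasatinib, against 9.05, 9.29 and 9.26 under DMSO, and fell by 1.34 ± 0.104 (adjusted p = 4.07e-07), and IRS2 fell by 0.63 ± 0.099. Inhibitors of the pathway were among the rises: DDIT4 (REDD1), which restrains mTORC1, read 12.54, 12.398 and 12.33 after dasatinib, against 11.103, 10.502 and 10.35 under DMSO, and rose by 1.77 ± 0.16, the sestrin SESN1 rose by 0.83 ± 0.066 and TSC1 by 0.499 ± 0.094. The regulatory subunit PIK3R1 rose by 0.97 ± 0.12. Without DMSO array 2 or 3 the rises in the list were 5, and without the arrays numbered 1 they were 12. In the lysosome and autophagy list 17 of 29 rose and 1 fell, with a median of 0.25, and 11 rose without dasatinib array 2. GABARAPL1, which decorates autophagosomes, read 9.66, 9.66 and 9.68 after dasatinib, against 8.31, 7.92 and 7.93 under DMSO, and rose by 1.62 ± 0.11. NPC1, the lysosomal cholesterol exporter, rose by 1.13 ± 0.14, the autophagy kinase ULK1 by 0.74 ± 0.11 and the receptor SQSTM1 (p62) by 0.68 ± 0.053. The 1 fall was in MITF, a transcription factor of lysosome genes, by 0.42 ± 0.070.

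The machinery of the G1 phase fell as a group, with 8 of 12 G1 cyclins and kinases lower, 2 higher and a median of -0.61. CCND1, the D cyclin that mitogens induce, read 7.91, 8.61 and 8.18 after dasatinib, against 10.21, 10.51 and 10.77 under DMSO, and fell by 2.26 ± 0.17 (adjusted p = 2.59e-07). The phosphatase CDC25A read 7.25, 7.68 and 7.601, against 8.66, 9.11 and 9.09 under DMSO, and fell by 1.44 ± 0.14. CCNE2, CCNE1 and CCND3 fell by 1.02 ± 0.21, 0.896 ± 0.12 and 0.77 ± 0.101, and SKP2, which marks p27 for degradation, by 0.91 ± 0.16. CDK4 had a change of -0.11 and did not pass.

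Of 6 inhibitors of these kinases 3 rose and none fell. CDKN1C (p57) read 10.55, 9.45 and 9.702 after dasatinib, against 7.65, 6.96 and 6.81 under DMSO, with array 1 highest in both groups, and rose by 2.76 ± 0.24 (adjusted p = 1.39e-06). CDKN1B (p27) read 10.597, 10.701 and 10.697, against 9.99, 9.82 and 9.89 under DMSO, and rose by 0.76 ± 0.068 (adjusted p = 1.53e-06). CDKN1A (p21) rose by 0.32 ± 0.073. CDKN2A and CDKN2D had changes of -0.0044 and 0.21 and did not pass.

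Downstream of G1, 6 of 16 E2F and retinoblastoma family genes fell (37.5%) and 2 rose (12.5%). Over all genes 14.0% fell and 12.3% rose. The falls were led by E2F5 at -0.87, and the S phase activator E2F1 was at -0.52. DNA replication genes fell in 12 of 36 cases and none rose, and the falls were 8 to 11 with 1 array left out. MCM10 and CDC6, which load and start the replicative helicase, fell by 1.13 ± 0.16 and 1.05 ± 0.15, and UHRF1, which carries DNA methylation through replication, by 0.76 ± 0.11. Mitosis genes moved up where they moved: 7 of 29 rose, none fell, and the largest rise was in the spindle kinase AURKA (0.703 ± 0.093). Array 1 was the highest in both groups for 26 of 29 mitosis genes (89.7%, against 17.0% over all genes) and the lowest in both for 17 of 36 replication genes (47.2%, against 19.6%). AURKA, for example, read 12.76, 12.46 and 12.496 after dasatinib, against 12.09, 11.74 and 11.78 under DMSO. Without dasatinib array 1, DMSO array 2 or DMSO array 3 the mitosis genes that rose were 2. Without the arrays numbered 1, 12 mitosis genes rose and 20 replication genes fell.

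Ribosome biogenesis fell broadly: 33 of 39 genes fell, none rose, and the median was -0.57. NOP16, a nucleolar factor of the large subunit, read 9.67, 10.08 and 9.86 after dasatinib, against 10.97, 11.43 and 11.39 under DMSO, and fell by 1.39 ± 0.13 (adjusted p = 2.78e-06). RRS1, which brings the 5S particle to the nucleolus, read 10.28, 10.595 and 10.49, against 11.51, 11.95 and 11.94 under DMSO, and fell by 1.35 ± 0.11 (adjusted p = 6.31e-07). WDR43, WDR3, LYAR, BYSL and LTV1, factors of the small subunit and the nucleolus, fell by 1.04 to 1.27. Array 1 was lowest in both groups for 25 of 39 of these genes (64.1%), and without the arrays numbered 1 the falls were 37. Genes of the finished ribosome did not share the fall: of 25 cytosolic ribosomal proteins 1, RPS9, changed, by 0.14 ± 0.041, and did not pass without dasatinib array 2 or 3 or DMSO array 2 or 3. The list spanned -0.065 to 0.14.

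MYC read 10.61, 11.03 and 10.94 after dasatinib, against 11.89, 12.03 and 12.06 under DMSO. The groups were apart at a high level, and MYC fell by 1.13 ± 0.11 (adjusted p = 2.94e-06). Among the other genes of its network, MXD1, MXI1, MXD3 and MXD4, which compete with MYC for its partner MAX, rose by 0.46 to 0.91, and none fell. Nucleotide and polyamine synthesis genes fell in 12 of 26 cases and 1, the polyamine catabolic enzyme SAT1, rose (0.59 ± 0.101). CTPS1 and PPAT, the entry enzymes of CTP and purine synthesis, fell by 1.03 ± 0.104 and 1.03 ± 0.095. The E-box CACGTG, which MYC and other bHLH factors bind, was in 14 of 33 ribosome biogenesis promoters (42.42%) and in 9.64% of all. Among genes that fell at least 2-fold it was in 18.03% of promoters. The share was 11.85% over all genes that fell and 8.55% over genes that rose.

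Metallothioneins, small cysteine-rich proteins that bind zinc and copper and are switched on by the zinc sensor MTF1, were among the largest rises. With metal transporters, 9 of 13 genes rose, none fell, and the median was 0.897. MT1F read 11.38, 10.83 and 11.08 after dasatinib, against 7.77, 7.397 and 7.47 under DMSO. All 3 dasatinib arrays were high, and MT1F rose by 3.55 ± 0.20, or 11.7-fold (adjusted p = 2.43e-08). MT1X read 12.45, 12.03 and 11.98, against 10.26, 10.34 and 10.33 under DMSO, and rose by 1.84 ± 0.202 (adjusted p = 1.1e-05). MT1G read 11.15, 9.602 and 9.597, against 7.898, 7.52 and 7.45 under DMSO, and MT1H 7.52, 6.43 and 6.27, against 4.88, 4.82 and 4.76. In both genes the first dasatinib array stood well above the other 2, and the rises of 2.496 ± 0.55 (adjusted p = 0.00359) and 1.92 ± 0.37, against dim DMSO signals in MT1H, carry wide errors. Array 1 was the highest in both groups for 7 of 13 genes of the list (53.8%, against 17.0% over all genes).

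MT1M and MT1E rose by 1.41 ± 0.29 and 0.897 ± 0.22, and DMSO array 1 of MT1E (9.45) lay close to the lowest dasatinib array (9.51). Without DMSO array 3 the change of MT1E was 0.71 and did not pass (adjusted p = 0.0509). MT2A read 14.99, 14.89 and 14.902 after dasatinib, against 14.85, 14.77 and 14.81 under DMSO, near the top of the scale of the arrays (15.19), and its change of 0.12 ± 0.045 did not pass (adjusted p = 0.0678). MTF1 rose by 0.39 ± 0.068, the zinc exporter SLC30A1, another MTF1 target, by 0.73 ± 0.12 and the zinc importer SLC39A14 by 0.94 ± 0.051. Metallothionein transcripts are near copies of one another, and most of these probe sets are of the kinds that share probes between sequences, so their signals may not be fully separate.

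The metallothioneins lie side by side on chromosome 16, MT2A from 56608584 to 56609497, MT1F from 56657959 to 56659303, MT1G from 56666730 to 56668065, MT1H from 56669814 to 56671129 and MT1X from 56682470 to 56684196 (GRCh38.p14). The metal response motif, written TGCNCNC, was sought on both strands. At least 1 match was in 62.76% of all promoters, 59.85% of those of genes that rose and 65.56% of those of genes that fell. It occurred 4 or more times in 3.34% of all promoters and in 4 of 4 metallothionein promoters given. That share was 2.37% for genes that rose and 3.65% for genes that fell. The 3 below are shown as members of the cluster whose signals are described above, and capitals mark the matches: MT1X holds 4 (chr16:56682220-56682519), MT1H 8 (chr16:56669564-56669863) and MT2A 8 (chr16:56608334-56608633), all on the plus strand.
MT1X: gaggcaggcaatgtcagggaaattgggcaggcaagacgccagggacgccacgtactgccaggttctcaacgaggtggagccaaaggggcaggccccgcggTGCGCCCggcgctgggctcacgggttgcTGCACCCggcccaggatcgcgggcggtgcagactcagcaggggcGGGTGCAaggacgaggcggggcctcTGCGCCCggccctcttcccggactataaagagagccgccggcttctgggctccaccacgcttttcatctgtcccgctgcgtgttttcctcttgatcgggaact
MT1H: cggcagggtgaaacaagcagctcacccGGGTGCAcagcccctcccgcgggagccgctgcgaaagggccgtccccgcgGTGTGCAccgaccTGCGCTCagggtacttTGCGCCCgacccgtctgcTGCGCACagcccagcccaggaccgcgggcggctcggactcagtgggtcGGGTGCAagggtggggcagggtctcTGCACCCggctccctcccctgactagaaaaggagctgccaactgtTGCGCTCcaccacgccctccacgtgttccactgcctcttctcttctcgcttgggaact
MT2A: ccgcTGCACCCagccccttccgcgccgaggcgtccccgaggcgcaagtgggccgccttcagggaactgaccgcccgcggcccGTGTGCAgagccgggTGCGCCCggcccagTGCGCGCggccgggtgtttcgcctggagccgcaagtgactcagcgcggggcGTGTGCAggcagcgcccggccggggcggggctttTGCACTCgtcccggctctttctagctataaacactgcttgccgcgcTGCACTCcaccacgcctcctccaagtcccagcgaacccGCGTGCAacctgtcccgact

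Genes of the oxidative stress response rose too. Of 26 NRF2 and glutathione genes 17 rose and 1 fell, with a median of 0.296. NFE2L2, which encodes NRF2, read 12.44, 12.52 and 12.496 after dasatinib, against 11.85, 11.73 and 11.69 under DMSO, and rose by 0.73 ± 0.046 (adjusted p = 5.77e-08). SLC7A11, which imports cystine for glutathione, read 9.37, 10.39 and 10.34, against 8.302, 8.01 and 8.21 under DMSO, and rose by 1.86 ± 0.204 with a first dasatinib array below the other 2. GCLM, a subunit of the enzyme that starts glutathione synthesis, rose by 1.04 ± 0.12, and HMOX1, heme oxygenase, by 1.11 ± 0.17. The 1 fall was in SLC48A1, a heme transporter (-0.62 ± 0.15).

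All 6 aldo-keto reductases tested, NADPH-dependent enzymes that reduce steroids and aldehydes, rose, with a median of 1.45. With 1 array left out the rises were 4 to 5. The median was 0.65 over the means of the probe sets and 0.35 with dim members included. AKR1C3 read 12.05, 12.42 and 12.497 after dasatinib, against 11.04, 10.97 and 10.78 under DMSO, and rose by 1.39 ± 0.095 (adjusted p = 1.15e-07). AKR1C1 read 8.78, 9.66 and 9.78, against 7.13, 7.66 and 7.56 under DMSO, and rose by 1.95 ± 0.29, and AKR1C2 rose by 1.64 ± 0.37. Array 1 was the lowest dasatinib array in all 6. Members of the AKR1C cluster are close in sequence, so their probe sets may share signal. The antioxidant response motif TGACNNNGC, which can overlap the AP-1 motif, was in 7 of 22 NRF2 list promoters (31.82%), against 14.97% of all. It was in 15.65% of the promoters of genes that rose and 14.33% of those of genes that fell, both near the share of all. The FOXO motif TGTTTAC was in 5 of 23 FOXO list promoters (21.74%), in 4.66% of those of genes that rose, 1.79% of those of genes that fell and 2.36% of all.

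The dioxin receptor axis had 4 rises and 1 fall in 9 genes. Its oxidase CYP1B1 read 11.76, 11.57 and 11.68 after dasatinib, against 10.95, 10.11 and 10.06 under DMSO, and rose by 1.296 ± 0.196, and its repressor AHRR rose by 1.18 ± 0.21. For both, DMSO array 1 was well above the other DMSO arrays. CYP1A1, the classical target, had a change of -0.013 and did not pass. Of 22 sterol and fatty acid synthesis genes 8 fell and 1 rose, and the squalene epoxidase SQLE fell by 0.71 ± 0.094. Without dasatinib array 1 the falls were 4, and without the arrays numbered 1 they were 13. Array 1 was the lowest in both groups for 14 of 22 of these genes (63.6%, against 19.6% over all genes), for 8 of 16 E2F and retinoblastoma family genes and for 10 of 23 YAP and TEAD targets.

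In the BCL2 family, which decides on survival at the mitochondrion, 5 of 17 genes fell and 2 rose. BCL2L1, the guardian BCL-XL, read 7.903, 7.88 and 7.86 after dasatinib, against 8.75, 8.92 and 8.997 under DMSO, and fell by 1.01 ± 0.096 (adjusted p = 2.67e-06), and BCL2 fell by 0.78 ± 0.197. The killer BCL2L11 (BIM) rose by 0.603 ± 0.083, while the killers BIK and BOK fell by 0.82 ± 0.14 and 0.61 ± 0.14. Of 18 p53 targets 8 rose, among them TP53INP1 (1.15 ± 0.12), and 2 fell, the polo kinase PLK2 (-1.31 ± 0.12) and the nuclease AEN (-0.94 ± 0.12). ATF4 and unfolded protein response genes had 6 rises and 1 fall in 25, with CEBPB at 0.76 ± 0.063 and DDIT3 (CHOP) at 0.67 ± 0.13. Chaperones fell in 6 of 17 cases and none rose, and the falls were 3 without dasatinib array 3 and 12 without the arrays numbered 1. Without the arrays numbered 1, 11 ATF4 and unfolded protein response genes rose.

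Inflammatory genes rose in part. Of 17 NF-kB factors, feedback inhibitors and targets 9 rose and none fell. PTGS2, the inducible cyclooxygenase, read 8.88, 9.57 and 9.36 after dasatinib, against 7.48, 7.07 and 7.26 under DMSO, and rose by 2.001 ± 0.24. TNFAIP6, which binds hyaluronan, rose by 1.45 ± 0.11, and the inhibitors NFKBIA and TNFAIP3 by 0.74 ± 0.063 and 0.65 ± 0.16. Of 18 interleukins and chemokines 5 rose and 3 fell, and the falls were 0 to 2 with 1 array left out. IL6 read 12.25, 12.26 and 12.22 after dasatinib, against 11.26, 11.27 and 11.16 under DMSO, at a high level with tight arrays in both groups, and rose by 1.01 ± 0.094 (adjusted p = 2.19e-06). The chemokine CCL20 rose by 1.18 ± 0.22. Of 20 interferon-stimulated genes 5 rose and none fell, among them IRF9 (0.94 ± 0.11). Without dasatinib array 1 or 2 or DMSO array 2 or 3 the rises were 3, and without the arrays numbered 1 there were 8 rises and 1 fall.

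Of 21 BMP, TGF-beta and ID genes 5 rose and 4 fell. The rises were led by the ID proteins, which block bHLH factors: ID3 read 11.49, 11.899 and 11.98 after dasatinib, against 9.94, 10.22 and 10.18 under DMSO, and rose by 1.68 ± 0.13 (adjusted p = 4.26e-07), ID2 by 1.304 ± 0.16 and ID1 by 0.85 ± 0.047. The ligand BMP2 rose by 0.93 ± 0.15, and its antagonist NOG fell by 0.94 ± 0.16. SNAI1, a repressor of E-cadherin, rose by 1.099 ± 0.090, and CDH1, E-cadherin itself, had a change of 0.49 and did not pass (adjusted p = 0.538). THBS1, an activator of TGF-beta, fell by 1.67 ± 0.23.

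Of 13 metalloproteinase and urokinase system genes 4 fell and 1 rose, and the plasminogen activator PLAU fell by 0.84 ± 0.064. In the hypoxia and glycolysis list 3 of 22 genes fell (13.6%) and 2 rose (9.1%), with 8 falls without the arrays numbered 1. Over all genes 14.0% fell and 12.3% rose. The glucose carrier SLC2A1 fell by 1.01 ± 0.13. NDRG1, a growth arrest gene that hypoxia also raises, rose by 2.11 ± 0.22, and the glycolytic enzymes LDHA and PGK1 had changes of 0.046 and 0.079 and did not pass. In the remaining lists, 4 of 12 Kruppel-like factors fell (33.3%) and 2 rose (16.7%). Of 13 Notch genes 1 rose and 1 fell (7.7% each), and of 22 oxidative phosphorylation genes 3 rose (13.6%) and none fell. For oxidative phosphorylation the rises were 1 to 5 with 1 array left out, and without the arrays numbered 1 there were 9 rises and 1 fall. Of 9 genes of the TXNIP and alpha-arrestin list 3 rose (33.3%) and 1 fell (11.1%). The fall was that of the glucose carrier SLC2A1, which this list also holds. Of 12 ephrins and their receptors 1 rose (8.3%) and 2 fell (16.7%). AXL, MET and other receptor kinases had 2 rises and 2 falls in 12 genes (16.7% each), and the rises were 0 to 1 with 1 array left out. Cadherins and EMT factors had 1 rise and 1 fall in 12 (8.3% each).

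Leaving out the arrays numbered 1 moved 29 list counts by over 1.5 times, 28 of them upward. In the pairs that follow, for counts not given above, the first number is without these arrays and the second with them. Rises were 3 and 1 in AP-1 subunits, 1 and 2 in AXL, MET and other receptor kinases, 4 and 2 in BCL2 family, 8 and 5 in BMP, TGF-beta and ID genes, 4 and 1 in cadherins and EMT factors, 1 and 0 in integrins and focal adhesion, 5 and 1 in metalloproteinases and urokinase system, 2 and 1 in Notch genes, 3 and 1 in nucleotide and polyamine synthesis, 2 and 1 in renal lineage markers and 3 and 1 in sterol and fatty acid synthesis. Falls were 2 and 1 in cadherins and EMT factors, 2 and 1 in MYC and its MAX network, 2 and 0 in mitosis, 1 and 0 in NF-kB factors and feedback, 2 and 1 in Notch genes, 4 and 2 in SRC, ABL and DDR target kinases and 3 and 1 in TXNIP and alpha-arrestins.

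Where a gene had several probe sets, the choice of the brightest one often gave the larger change. Of 154 genes named here with 2 or more probe sets and a called change, 50 had a change over 1.5 times that of the mean of their probe sets, 2 (SPRY1 and SAT1) had one that much smaller, and none changed sign. Among those described above, AMOTL2 had -1.33 over the mean of 3 probe sets, DUSP1 0.84 over 4, AKR1C3 0.67 over 2, NDRG1 1.02 over 6 and SLC39A14 0.27 over 4. SPRY1 had -1.36 over the mean of 3. The other rises over 1.5 times that of the mean were in this mean 0.62 for AHRR, 0.63 for AKR1C2, 0.31 for BCL2L11, 0.98 for GABARAPL1, 1.09 for HS3ST1, 0.59 for IL1R1, 0.57 for IRF9, 0.23 for MTF1, 0.27 for MXD1, 0.26 for MXD3, 0.599 for MXD4, 0.062 for TEAD1, 0.63 for TP53INP1, 0.26 for TSC1 and 0.72 for YPEL2. The other falls of this kind were in the mean -0.33 for BCL2, -0.25 for BOK, -0.499 for CCND3, -0.37 for EFNA5, -0.37 for HBEGF, -0.85 for IRS1, -0.69 for LHX1, -0.27 for MITF, -1.45 for MYEOV, -0.71 for NRG1, -0.18 for PTK2, -1.13 for ROR1, -0.66 for SLC2A1, -0.23 for SLC48A1, -0.38 for TGFA, -1.11 for THBS1, -0.399 for TNS3, -0.46 for UHRF1 and -0.63 for WDR3. CCN1, with 2 probe sets, and CCN2, with 3, had -3.37 and -3.395.

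**Figure D3:**
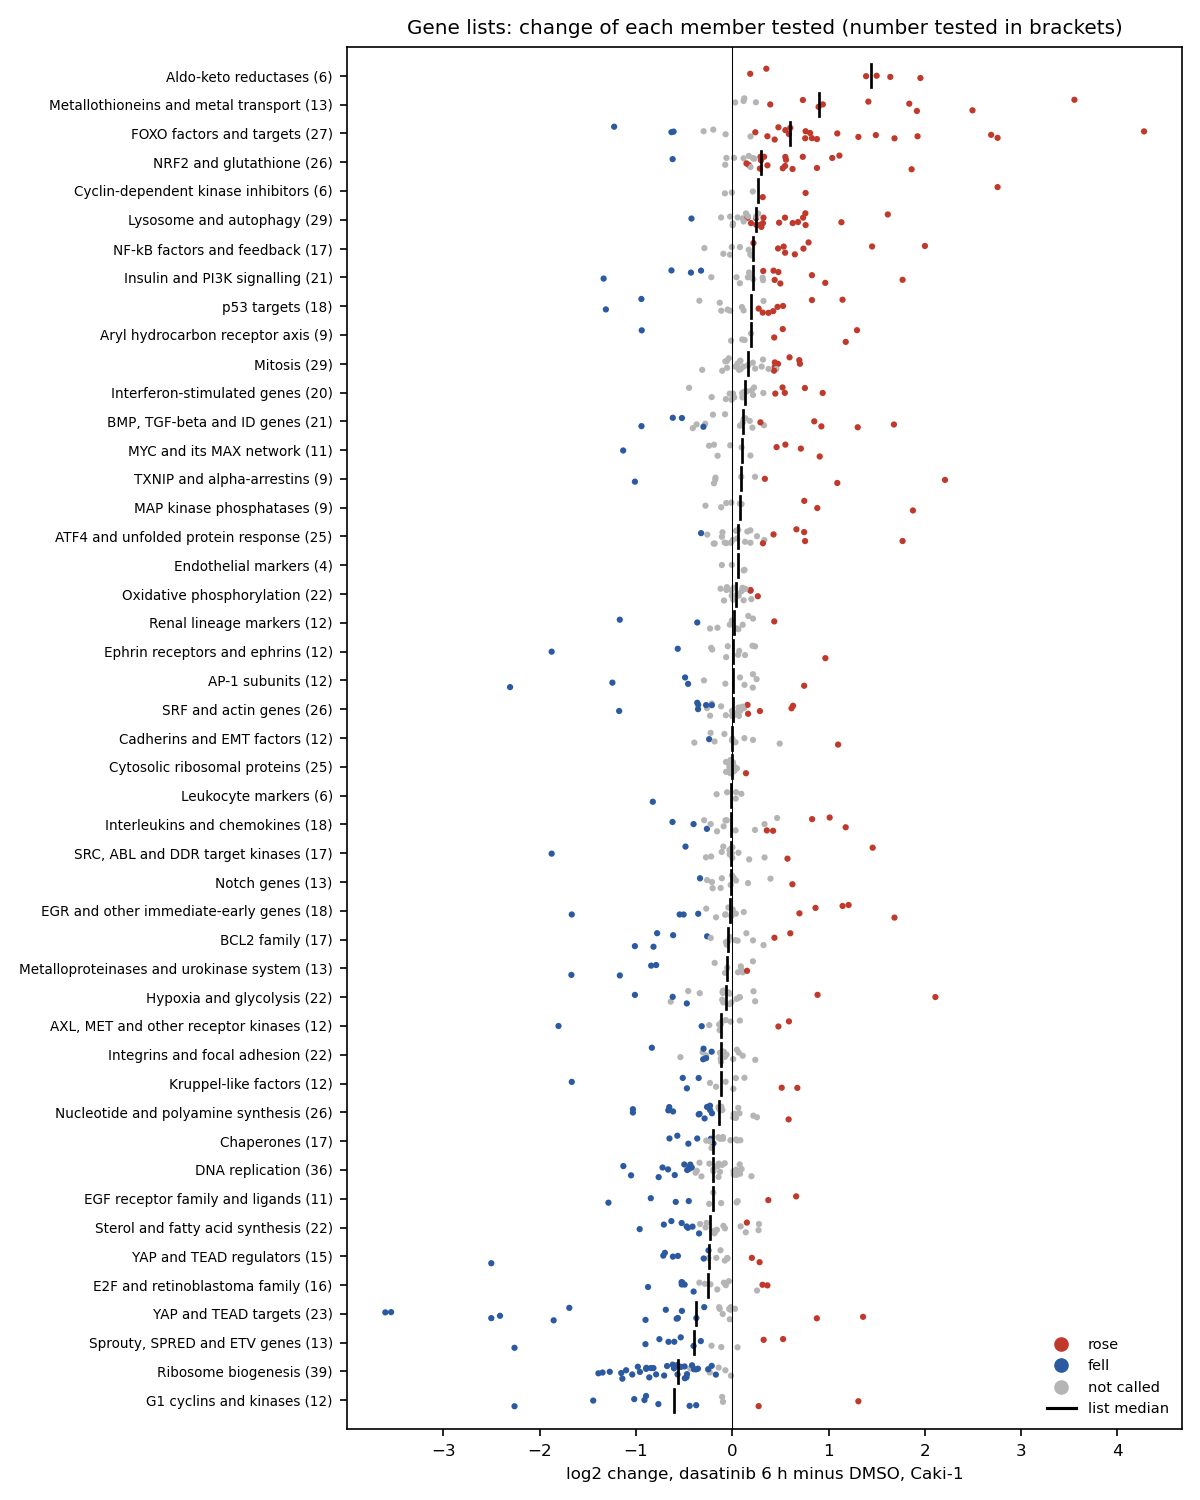
Change of every gene tested (log2, dasatinib 6 h minus DMSO) in each of 47 lists, ordered by the list median (black bar), with genes that rose in red, fell in blue and were not called in grey. Aldo-keto reductases (1.45) and metallothioneins (0.897) stand at the top, G1 cyclins and kinases (-0.61) and ribosome biogenesis (-0.57) at the bottom, in an order that turns within each pair under other settings, and cytosolic ribosomal proteins lie close to 0.

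Large changes also lay outside the lists. CXCR4, the receptor of the chemokine CXCL12, read 8.09, 8.41 and 8.27 after dasatinib, against 5.49, 5.52 and 5.71 under DMSO. The dasatinib arrays were all clearly high, and CXCR4 rose by 2.69 ± 0.100 (adjusted p = 5.73e-10). FGA, the alpha chain of fibrinogen, read 8.97, 8.36 and 8.17, against 5.75, 5.703 and 5.92 under DMSO, and rose by 2.71 ± 0.16. RDH10, which makes retinaldehyde from retinol, read 11.15, 11.55 and 11.57, against 8.97, 9.02 and 9.103 under DMSO, and rose by 2.39 ± 0.13. These rises were well outside the spread of either group. PDE4B, which breaks down cAMP, rose by 2.36 ± 0.15, CSGALNACT1, which starts chondroitin sulfate chains, by 2.21 ± 0.14, KYNU, an enzyme of tryptophan breakdown, by 2.14 ± 0.37, the forkhead factor FOXQ1 by 2.09 ± 0.24 and KIAA1217 by 2.47 ± 0.12. Over the means of their probe sets FGA rose by 1.53, KYNU by 1.12 and KIAA1217 by 0.77. PDE4B under DMSO was dim, at 4.23, 4.76 and 4.49.

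The large falls outside the lists were of varied kind. SHISA9, an auxiliary protein of glutamate receptors, read 5.59, 5.81 and 5.98 after dasatinib, against 8.16, 8.75 and 8.77 under DMSO, and fell by 2.77 ± 0.19. MYEOV, a gene near CCND1 on chromosome 11, read 6.27, 6.24 and 5.84, against 8.35, 8.37 and 8.52 under DMSO, and fell by 2.297 ± 0.11 (adjusted p = 7.43e-09). Over the means of their probe sets SHISA9 had a change of -1.33 and SOX17 one of -0.75. SOX17, an endoderm and vascular transcription factor, fell by 1.95 ± 0.12, and PTPRR, a phosphatase that binds ERK, by 1.93 ± 0.16. ODAPH, a gene of enamel formation, fell by 1.905 ± 0.19. FLG, the epidermal protein filaggrin, read 8.75, 7.97 and 7.42 after dasatinib, against 10.67, 9.96 and 10.04 under DMSO, a wide spread with array 1 highest in both groups, and fell by 2.18 ± 0.44 (adjusted p = 0.00178).

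The second line showed which changes were shared. In 769-P, 3817 of 12350 genes (30.9%) changed after 6 h. Of 11908 genes tested in both lines, 906 rose in both, 61.93% of the Caki-1 rises and 46.99% of those of 769-P, where 16.19% of all these genes rose in 769-P. In the same way 1068 fell in both (64.45% and 61.17%), against 14.66% of all that fell in 769-P. Opposite calls were rare, with 39 genes that rose in Caki-1 and fell in 769-P and 45 the other way. The change itself was tested between the lines, and 1041 of 12862 genes (8.09%) differed, 473 with a higher change in Caki-1 (3.68%) and 568 with a lower one (4.42%). Levels are not compared between the lines here.

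CCN1, FJX1, AMOTL2, EPHA2, MT1F, CDKN1C and MT1X did not pass the test of a difference, Caki-1 minus 769-P. With the replicate number as a block, EPHA2 passed it (0.52, adjusted p = 0.0227 by limma). For CCN1 the difference was -0.11 ± 0.39, with an interval at 95% confidence from -0.91 to 0.68, and for MT1F it was 0.84 ± 0.38, from 0.045 to 1.63. CCN2 was too dim to be tested within 769-P, where it read 4.32, 3.52 and 3.96 after dasatinib and 6.34, 7.14 and 6.56 under DMSO. The rises of PDK4 and FOXO1 were larger in Caki-1: PDK4 changed by 1.37 ± 0.304 in 769-P, a difference of 2.91 ± 0.46 (adjusted p = 0.00011), and FOXO1 by 0.64 ± 0.091, a difference of 2.05 ± 0.13 (adjusted p = 1.67e-10). FGA and CXCR4, both dim in 769-P, and MT1G, with a change of -0.12 there, also rose more in Caki-1, by 2.604 ± 0.24, 2.38 ± 0.15 and 2.62 ± 0.63.

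Several ERK and MYC genes differed between the lines. MYC fell by 3.51 ± 0.16 in 769-P, far more than in Caki-1, a difference of 2.38 ± 0.21 (adjusted p = 5.79e-08). DUSP5 read 5.22, 4.796 and 5.28 after dasatinib in 769-P, against 7.01, 7.08 and 6.61 under DMSO there, a fall of 1.80 ± 0.15 beside the rise in Caki-1, and the difference was 2.55 ± 0.25 (adjusted p = 1.36e-07). EGR1, SPRY2 and DUSP6 likewise rose in Caki-1 and fell in 769-P, by 1.12 ± 0.18, 1.04 ± 0.18 and 0.48 ± 0.15, and their differences were 2.27 ± 0.25, 1.57 ± 0.23 and 1.36 ± 0.26. HBEGF fell by 3.12 ± 0.21 in 769-P, a difference of 2.53 ± 0.30, and HS3ST1, a heparan sulfate sulfotransferase, rose by 2.03 ± 0.31 in Caki-1 and fell by 0.97 ± 0.28 in 769-P, a difference of 2.996 ± 0.46. FOSL1 fell in both lines and its difference did not pass (0.72 ± 0.28, adjusted p = 0.147).

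Genes that rose more in 769-P were HMOX1 (3.12 ± 0.197 there, difference -2.01 ± 0.28), the interleukin receptor IL1R1 (1.15 ± 0.15 in Caki-1 and 3.35 ± 0.15 in 769-P, difference -2.196 ± 0.23) and TPPP, a tubulin polymerisation protein (0.91 ± 0.17 in Caki-1 and 3.27 ± 0.19 in 769-P, difference -2.35 ± 0.27). F3 fell in Caki-1 and changed by -0.073 in 769-P, a difference of -1.78 ± 0.28 (adjusted p = 9.83e-05). ERBB3 rose by 2.70 ± 0.35 in 769-P and did not pass in Caki-1 (-0.197 ± 0.205), a difference of -2.897 ± 0.45.

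**Figure D4:**
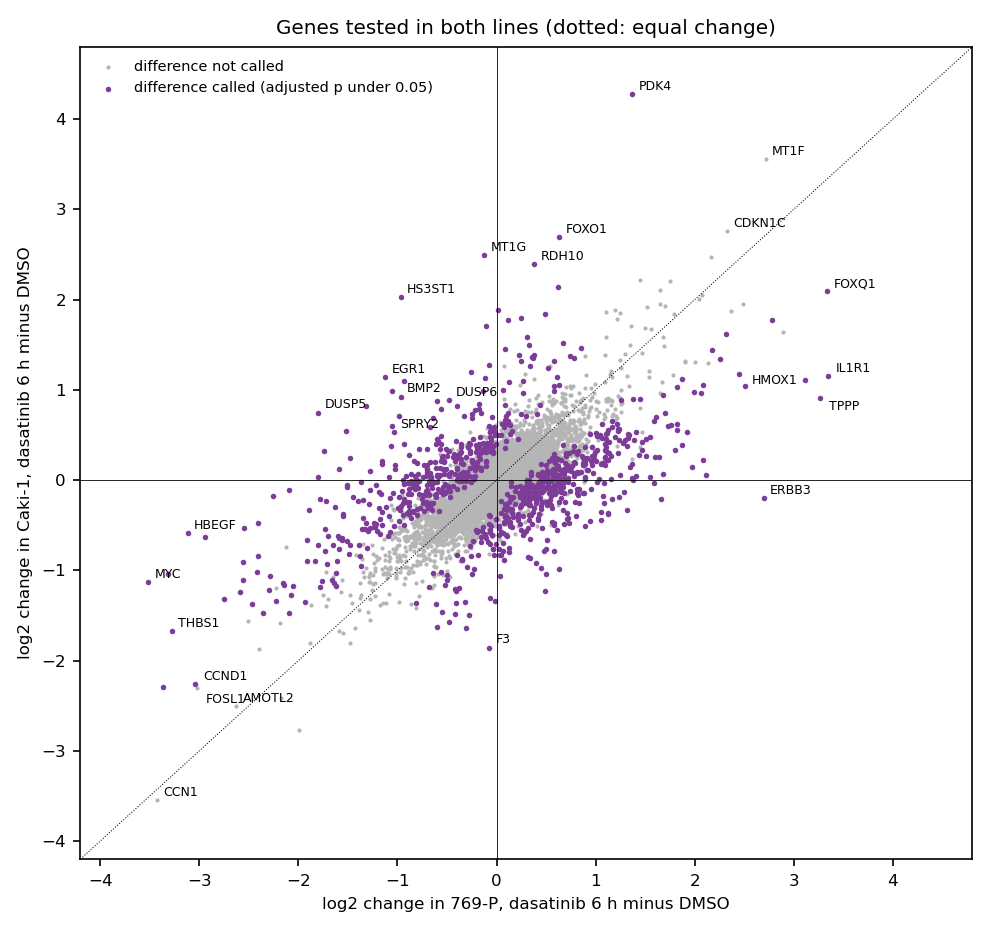
Change at 6 h in Caki-1 (log2, vertical axis) against that in 769-P (horizontal axis) for the 11908 genes tested in both lines. Purple points are genes whose change differed between the lines, and across all genes the points correlate at 0.6795 (Pearson) and 0.6145 (Spearman), as a description in which genes are not independent.

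Later arrays of Caki-1 showed whether the 6 h level held. They share the 6 h arrays with the comparison above, so each gene is read by itself. Between 6 h and 12 h 3345 of 12420 genes moved (26.9%), 1548 up (12.5%) and 1797 down (14.5%), and between 6 h and 24 h 6669 (53.7%). CCN2 was 0.62 from its 6 h level at 12 h (adjusted p = 0.00878, or 0.131 over the mean of its probe sets) and 1.48 at 24 h (adjusted p = 1.65e-06), so it had come up again but stood at 8.49 ± 0.022 (SD, n = 3) at 24 h, against 10.61 ± 0.38 under DMSO. CCN1 differed from its 6 h level by 0.31 at 12 h and did not pass, and by 1.20 at 24 h (adjusted p = 0.000377). MYC, CXCR4 and ARRDC3 did not pass for 12 h against 6 h, at 0.014, -0.23 and 0.35.

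Other genes went on. AKR1C1 was 1.94 higher at 12 h than at 6 h, RBP4, the plasma carrier of retinol, which had risen by 1.17 ± 0.22 at 6 h, 1.92 higher, GBP2, an interferon-induced GTPase that had risen by 2.01 ± 0.12, 1.799 higher, and the death ligand TNFSF10 1.51 higher after a 6 h change of 0.36 ± 0.12 that did not pass without dasatinib array 1 or DMSO array 2 or 3. Their means at 24 h were 11.49 ± 0.48, 12.95 ± 0.15, 9.64 ± 0.059 and 10.88 ± 0.092 (SD, n = 3), against 7.45 ± 0.28, 8.68 ± 0.34, 5.21 ± 0.11 and 8.62 ± 0.051 under DMSO. STAT4 rose by 0.85 ± 0.12 at 6 h and was 1.51 higher again at 12 h. CCNE2 differed from 6 h by -2.16, FAM111B, a protease of replication, by -1.83, DTL, which marks replication proteins for degradation, by -1.45, and the nuclease EXO1 by -1.42. By list, 34 of 36 replication genes and 30 of 39 ribosome biogenesis genes were lower at 12 h than at 6 h, and 21 of 27 FOXO genes were higher.

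A few 6 h rises were passing. SLC7A11 and GCLM were -1.24 and -1.18 from their 6 h level at 12 h and -2.001 and -1.75 at 24 h, and at 24 h GCLM averaged 9.03 ± 0.030 (SD, n = 3), against 9.73 ± 0.058 under DMSO. DGKG, a diacylglycerol kinase, had risen by 0.74 ± 0.14 at 6 h and was -1.48 from that level at 12 h. Metallothioneins differed in their later course. MT1F was 0.84 higher at 12 h than at 6 h, or 0.54 higher without 12 h array 1, and 0.94 from its 6 h level at 24 h (adjusted p = 0.00106). MT1X was -0.42 from 6 h at 12 h (adjusted p = 0.142, or 0.0321 with the replicate number as a block) and -1.201 at 24 h (adjusted p = 0.000147). MT1G, MT1H and MT1M were -0.23, -0.092 and -0.27 from 6 h at 12 h and did not pass, and -1.56, -1.01 and -0.93 at 24 h (adjusted p = 0.0272, 0.0312 and 0.0158).

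**Figure D5:**
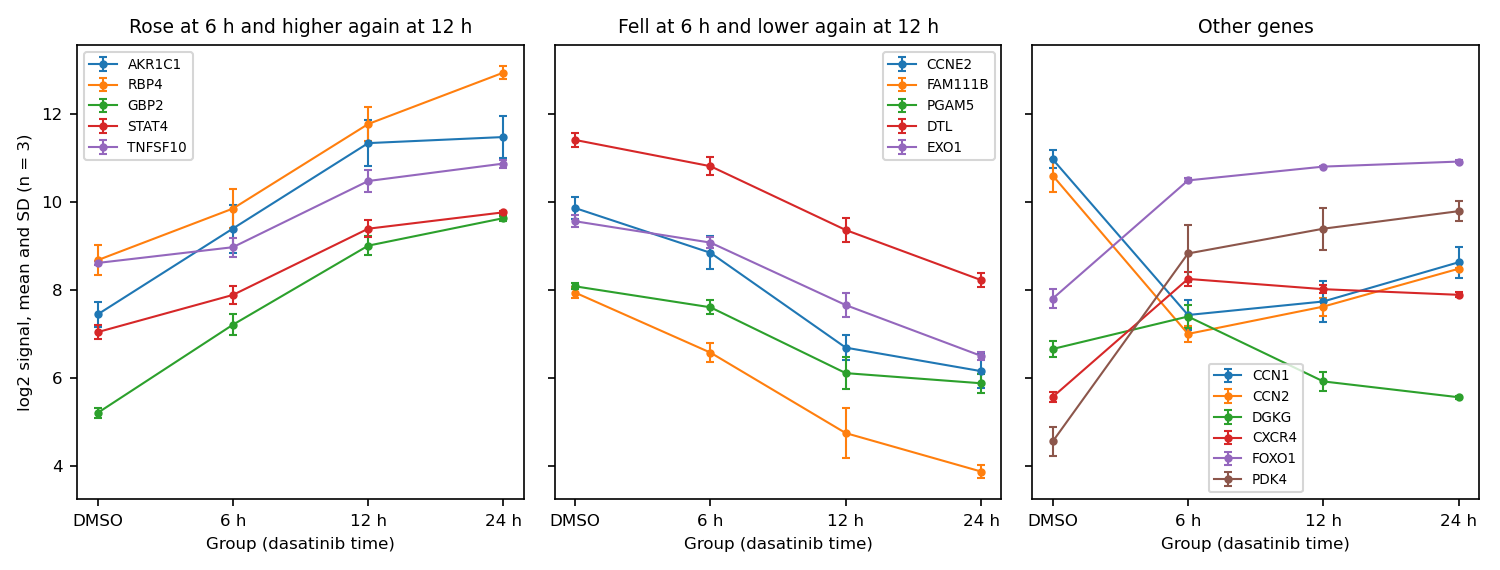
Mean log2 signal with SD (n = 3) of named genes in Caki-1 under DMSO and after 6, 12 and 24 h of dasatinib, on a categorical axis. The left panel holds genes that rose at 6 h and were higher again at 12 h, the middle one genes that fell and were lower again, and the right one others, among them CCN1 and CCN2, which are lowest at 6 h, and DGKG, which is highest at 6 h.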

How the data were processed

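Affymetrix PrimeView arrays of 24 samples were used. The values are log2 signals deposited by the authors, one column per array, made with MAS5 per the submitters' processing notes, where no version is given. Of 49395 probe sets, 44988 name 1 gene, 1832 several and 2575 none, and 102 control probe sets were left out. For each gene the single-gene probe set with the highest mean over all arrays was kept (18132 genes), and genes were tested whose mean over the 12 Caki-1 arrays exceeded the 40th percentile of all probe sets (5.38). Probe sets follow the platform's annotation, and 44961 of those that name 1 gene were matched by Entrez identifier to RefSeq, whose symbols were used.

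Changes were fitted in R 4.3.3 with limma 3.58.1 (lmFit, eBayes with an intensity trend, group means without covariates, 8 residual degrees of freedom) over the 12 Caki-1 arrays, and the difference from 769-P over all 24. P-values were adjusted by Benjamini-Hochberg over all genes tested, with a threshold of 0.05. The array number limits the precision.

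The members and the 47 lists (917 genes) were chosen with earlier results of these data known. The genes named were up to 8 of each list, called ones first by size, the 15 largest rises and falls without overlap, the 8 largest differences between the lines and the 6 largest later changes in each direction, and 30 genes by name, among them CCN1, CCN2 and MYC. CDK4, EGFR, ERBB2, IGFBP3, LDHA, MET, MITF, MTF1, PGK1 and TEAD1, the tubule markers and some genes of the closing observations were added after their values were seen. Members that lost their call with 1 array left out were in part not named, and the counts include them.

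Same-numbered arrays correlated weakly in their deviations between 12 h and 6 h of Caki-1 (r = 0.254, 0.129 and 0.163). Between 24 h and 6 h r was 0.297, -0.047 and 0.173, and between dasatinib and DMSO of 769-P 0.337, 0.103 and 0.27. The labels name no pairs, and arrays of different numbers were not compared in this way, so a pairing is not shown. The main fits carry no replicate block. Alternatives were the filter, the probe set rule, quantile normalization, median centring, no trend, array weights, the replicate block, only the 6 arrays, a threshold of 0.01 and each array left out.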

Additional observations from a re-analysis of the deposited data

Results flagged for a closer look

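The change at 6 h, dasatinib minus DMSO, differed between Caki-1 and 769-P for 86 of 206 named genes tested for it, by the limma test of the difference itself, against 8.09% over all 12862 genes tested. Part of these genes were named because of that difference, so their share is a description. Values are log2 differences, with the change of 769-P taken from that of Caki-1. The call was lost under at least 1 alternative for 28 of them, for 25 with 1 array left out and for 17 over the mean of the probe sets. They were AHRR, BYSL, CCND1, CDKN2D, E2F5, EFNA5, ERBB2, FBXO32, FOXQ1, GABARAPL1, KYNU, LHX1, LYAR, MET, MTF1, MXI1, NOG, PAX8, PDLIM5, PPARGC1A, PPAT, PXN, RBP4, RRS1, SAT1, SESN1, SIK2 and TEAD1.

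Genes that rose in Caki-1 and fell in 769-P had differences of 2.996 for HS3ST1, 2.55 for DUSP5, 2.27 for EGR1, 1.89 for BMP2, 1.57 for SPRY2 and 1.36 for DUSP6. Genes that fell in Caki-1 and rose in 769-P had differences of -1.26 for BCL2. Genes that rose in both lines, but more in Caki-1, had differences of 2.91 for PDK4, 2.05 for FOXO1, 2.01 for RDH10, 1.52 for KYNU, 1.003 for PPARGC1A, 0.99 for NFIL3, 0.61 for SIK2, 0.38 for SESN1 and 0.32 for NFE2L2. Genes that rose in both lines, but more in 769-P, had differences of -0.57 for MXI1, -0.703 for GABARAPL1, -0.96 for ATF3, -1.01 for DDIT4, -1.05 for MXD1, -1.13 for BCL2L11, -1.24 for FOXQ1, -1.27 for AHRR, -2.01 for HMOX1, -2.196 for IL1R1 and -2.35 for TPPP. Genes that fell in both lines, but more in 769-P, had differences of 2.53 for HBEGF, 2.38 for MYC, 2.02 for ETV5, 1.605 for THBS1, 1.57 for PLAU, 1.44 for PLK2, 1.35 for JUN, 1.09 for WWTR1, 1.07 for MYEOV, 0.89 for IRS1, 0.88 for KRT80, 0.802 for SRF, 0.78 for CCND1, 0.59 for RRS1, 0.56 for BYSL, 0.49 for LYAR, 0.45 for LHX1, 0.43 for VCL and 0.37 for PXN. Genes that fell in both lines, but more in Caki-1, had differences of -0.39 for PPAT, -0.53 for E2F5 and -0.82 for FBXO32.

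Where the gene rose in Caki-1 and did not pass in 769-P, the differences were 2.62 for MT1G, 1.82 for RGS2, 1.66 for FGB, 1.37 for TNFAIP6, 1.25 for NPC1, 0.89 for DGKG, 0.83 for SNAI1, 0.703 for PIK3R1, 0.62 for NFKBIA, 0.51 for SAT1, 0.48 for PDLIM5, 0.397 for MTF1, 0.34 for PAX8 and 0.31 for TEAD1. Where the gene fell in Caki-1 and did not pass in 769-P, they were -0.38 for EFNA5, -0.81 for TNS3 and -1.78 for F3. Genes that rose in 769-P and did not pass in Caki-1 had differences of -0.41 for ERBB2 and -2.897 for ERBB3. Genes that fell in 769-P and did not pass in Caki-1 had differences of 0.75 for CDKN2D, 0.51 for ABL1 and 0.24 for MET. Genes too dim to be tested within 769-P that rose in Caki-1 had differences of 2.604 for FGA, 2.38 for CXCR4, 2.37 for PDE4B, 1.97 for PTGS2, 1.74 for MT1H, 1.61 for LUM, 1.57 for MT1M, 1.06 for IL6 and 0.91 for RBP4. Genes too dim to be tested within 769-P that fell in Caki-1 had differences of -0.69 for NOG, -1.77 for PTPRR, -1.85 for ODAPH, -2.12 for FGF18, -2.34 for SOX17 and -2.36 for FLG. A gene this dim can show little fall in 769-P, which limits what these last differences say.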

How the results depend on the processing

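Of the 3273 genes called at 6 h, between 2362 (without DMSO array 2) and 3260 (replicate block) were called in the same direction under each of 16 alternatives, and none was called in the opposite one. With 1 array left out the calls numbered 2385 to 3152 (1088 to 1453 higher, 1269 to 1699 lower), and those of at least 2-fold 246 to 327. Differences between the lines numbered 825 to 1044, 12 h against 6 h 2227 to 3812 and 24 h against 6 h 5850 to 6529. The 2227 came without 12 h array 3.

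A threshold of 0.01 left 2070 calls, 939 higher and 1131 lower. Array quality weights gave 2423 higher, and the cause was not tested. Over the mean of all probe sets 172 genes changed at least 2-fold, and the cause was not tested. Median centring moved all changes by -0.029 and gave 1300 higher and 1942 lower. Without the arrays numbered 1 of all 4 Caki-1 groups, chosen after seeing the data, 4557 genes were called.

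Same-numbered dasatinib and DMSO arrays of Caki-1 correlated in their deviations at 0.294, 0.162 and -0.023, so the numbers were not taken as pairs. The fit with the replicate block called 3675 genes (1755 higher, 1920 lower), with 283 at least 2-fold. With this replicate block 1381 differences between the lines, 3827 genes for 12 h against 6 h and 6964 for 24 h against 6 h were called. Among named genes it gave the call to 23 more differences between the lines and took none, and for 12 h against 6 h it gave 14 and took 1 (MITF).

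Genes under the filter on dim genes, ANKRD1 among them, were not tested. Of 28 list counts of 5 or more, 7 moved by over 1.5 times with 1 array left out, and smaller counts moved by up to 3 genes. Probe sets near the top of the scale, such as that of MT2A, can show little further rise. With 3 arrays a group, a change that did not pass is not shown to be absent.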

Other observations

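Several genes that act on or answer to cyclic AMP in other cells had large rises. They were chosen after their values were seen. RGS2, which speeds the switching off of G proteins, read 11.74, 12.26 and 12.27 after dasatinib, against 10.65, 10.26 and 10.23 under DMSO, and rose by 1.71 ± 0.14 (adjusted p = 5.6e-07 by limma). CREM, a transcription factor that binds cAMP response elements, read 10.08, 10.52 and 10.54 after dasatinib, against 9.20, 9.08 and 9.12 under DMSO, and rose by 1.25 ± 0.11 in Caki-1 and by 1.26 ± 0.095 in 769-P. PPARGC1A, the coactivator PGC-1 alpha, rose by 1.38 ± 0.18, with 6.12, 6.63 and 6.46 after dasatinib and 5.34, 4.87 and 4.85 under DMSO, which lies below the filter level. The phosphodiesterases PDE4A and PDE4D, relatives of PDE4B, rose by 1.27 ± 0.38 and 0.78 ± 0.19. The call of PDE4A was lost with any 1 of 5 arrays left out (highest adjusted p = 0.0913 by limma). NR4A1, another NR4A receptor, had a change of 0.0045 and PER1, a clock gene with such elements, one of -0.17: neither passed. The groups of RGS2, CREM and PPARGC1A did not overlap. The cAMP response motif TGACGTCA was in 2.9% of the promoters of genes that rose, near the 3.0% of all. It was in 3.24% of those of genes that fell and in 6 of 96 of genes that rose at least 2-fold (6.25%). Whether cyclic AMP plays a part was not tested.

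Secreted proteins outside the lists, also chosen after their values were seen, rose as well. FGB, the beta chain of fibrinogen, read 11.24, 10.18 and 10.296 after dasatinib, against 9.12, 8.64 and 8.64 under DMSO, and rose by 1.77 ± 0.22, with array 1 highest in both groups. LUM, the matrix proteoglycan lumican, read 6.67, 6.72 and 6.52 after dasatinib, against 5.102, 5.07 and 5.15 under DMSO, where it was dimmer than the filter requires, and rose by 1.53 ± 0.18. In 769-P the change of FGB was 0.12, and the difference between the lines was 1.66 ± 0.32 (adjusted p = 0.00109 by limma).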
